A study of Mus musculus with 6 samples.

Results

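The genes of MHC class II antigen presentation were examined in mouse liver: the classical chains H2-Aa, H2-Ab1 and H2-Eb1, the invariant chain Cd74, the transactivator Ciita, and the peptide editors H2-DMa, H2-DMb1, H2-DMb2, H2-Oa and H2-Ob. These 10 genes were chosen by name from the 29734 genes of the deposited expression table, and all 10 passed the filter on low counts. The study sequenced liver RNA from male mice that began a Western diet at 8 weeks of age and stayed on it for 20 weeks, and its title places the comparison in nonalcoholic steatohepatitis. One group carried the Prdx1 C52S variant, in which cysteine 52 of the peroxidase peroxiredoxin 1 is serine (3 libraries, C52S 1, 2 and 4). The other group was wild type (3 libraries, WT 6, 8 and 9). All 6 libraries came from animals on the Western diet, so no library shows the level on a standard diet. Neither zygosity nor strain is given in the sources used here.

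MHC class II molecules display peptides from endocytosed proteins to CD4+ T cells. An alpha and a beta chain assemble in the endoplasmic reticulum around the invariant chain CD74, which is later degraded in endosomes until only a fragment fills the groove; H2-DM then exchanges that fragment for peptide and H2-O restrains H2-DM. CIITA, the master co-activator, is recruited by factors bound to conserved X and Y boxes in the promoters of these genes, and in liver the pathway is mainly used by dendritic cells, macrophages and B cells.

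Library totals lay between 60326469 and 76164949 estimated counts, or 15.1 to 19.0 M fragments if a fragment is taken as about 4 counts. The hepatocyte markers were abundant, with Alb at a mean of 21401 FPKM in Prdx1 C52S and 18709 FPKM in WT. FPKM is a fragment count scaled to transcript length and library size. One library, WT 8, stood apart from the other WT libraries. Its 6 cholangiocyte markers summed to 822 FPKM, against 356 and 228 FPKM in WT 6 and 9. Most of each of these sums was Spp1, at 736 FPKM against 342 and 220 FPKM. WT 8 was the highest WT library for all 6 of these markers, as for 65.6% of all genes tested. Its 6 Kupffer cell markers summed to 36.3 FPKM, against 247 and 278 FPKM, with Timd4 listed at 0. Fold changes and call counts of the 10 genes are therefore given with and without WT 8, as are the medians of the lists described here that move by over 1.5 times. The labels do not say more about the origin of the replicates than their numbers, so p-values measure the spread between these samples.

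Of the 10 genes, 8 lie in the MHC region of chromosome 17, between positions 34092340 and 34316674 of GRCm38, a span of 224 kb. In order along the plus strand these are H2-Oa, H2-DMa, H2-DMb2, H2-DMb1, H2-Ob, H2-Ab1, H2-Aa and H2-Eb1, with H2-Aa alone transcribed from the minus strand. Ciita and Cd74 lie on other chromosomes.

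Promoter sequences are shown because class II genes are known for a shared promoter module, the X and Y boxes read by the CIITA machinery. RefSeq windows on GRCm38.p6, from 250 bases before to 50 after the annotated start, were matched for 7 of the 10 genes (8 windows). A first form of the X box core, CCNNGNNAC, was in 47.4% of all 32851 windows on either strand and so separated little. A second form, CNNGNAAC, was chosen after the promoters had been seen and was in 39.1% of windows. The Y box CCAAT, which reads ATTGG on the opposite strand, was in 37.4%. The ordered pair of CNNGNAAC followed by ATTGG with 10 to 40 bases between was in 1.3% of windows, and in 0.575% on the gene's own strand before the start. Among the matched genes, 5 held the pair: H2-Aa, H2-Eb1, H2-Ob, H2-Oa and H2-DMb1, with 28, 27, 25, 28 and 28 bases between the boxes. The stretches below are 5′ to 3′ on each gene's strand, with the boxes of the pair in capitals (in H2-DMb2, the bases at the corresponding place); they are H2-Aa (minus strand, chr17:34287852-34287971), H2-Eb1 (plus, chr17:34305708-34305827), H2-Ob (plus, chr17:34238748-34238867), H2-Oa (plus, chr17:34092236-34092340) and H2-DMb2 (plus, chr17:34145059-34145178).
H2-Aa: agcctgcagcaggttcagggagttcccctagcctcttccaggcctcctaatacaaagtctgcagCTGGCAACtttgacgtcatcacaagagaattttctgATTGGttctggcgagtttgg
H2-Eb1: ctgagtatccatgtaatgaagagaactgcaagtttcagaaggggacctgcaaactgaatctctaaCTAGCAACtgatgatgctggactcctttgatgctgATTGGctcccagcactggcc
H2-Ob: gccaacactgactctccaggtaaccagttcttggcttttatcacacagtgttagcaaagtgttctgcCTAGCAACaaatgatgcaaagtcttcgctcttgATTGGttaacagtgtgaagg
H2-Oa: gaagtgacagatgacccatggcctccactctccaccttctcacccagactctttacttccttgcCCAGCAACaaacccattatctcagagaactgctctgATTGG
H2-DMb2: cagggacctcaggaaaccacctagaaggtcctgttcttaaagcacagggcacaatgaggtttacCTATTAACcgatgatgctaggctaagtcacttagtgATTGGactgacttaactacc
The match in H2-DMb1 was CTAGTAAC. H2-DMb2 lacked the pair: its CTATTAAC at the corresponding place carries G4T relative to the form, counted from the form's 5′ end. The form also occurs once in lower case in the H2-DMb2 stretch (CAGGAAAC) and once in the H2-Ob stretch (CAGGTAAC), both farther from ATTGG than the pair allows. Neither H2-DMa window held the pair. A match describes the letters of a window and is not a binding site.

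Levels spanned a wide range, from the invariant chain to the H2-O editors. Cd74 lies on chromosome 18 (60803848 to 60812646, plus strand) and Ciita on chromosome 16 (10480059 to 10526426, plus strand). In WT livers Cd74 averaged 325 FPKM, the 3 classical chains 66.1 to 94.1 FPKM, H2-DMb1 14.1 FPKM and H2-DMa 4.74 FPKM, while H2-DMb2, Ciita, H2-Oa and H2-Ob averaged 1.86, 1.51, 0.658 and 0.496 FPKM. Within each of the 6 libraries H2-Eb1 was above H2-Ab1, H2-Ab1 above H2-Aa, and H2-DMb1 above H2-DMa. H2-DMb2 was above Ciita in every library but WT 9, where both were at 1.10 FPKM. H2-Oa was above H2-Ob in every WT library and in C52S 2, but below it in C52S 1 and 4, so their order was not resolved. The FPKM of 8 of the 10 genes was lower in every Prdx1 C52S library than in every WT library, where 36.7% of all 18931 genes tested showed the same separation. The exceptions were H2-Oa and H2-Ob. After TMM scaling, which corrects for differences in RNA composition, 7 of 10 remained separated, all but H2-DMb2 of those 8, against 18.0% of all genes. The scaling factors were 0.883 to 0.92 in the Prdx1 C52S libraries and 1.03 to 1.28 in WT, so equal FPKM values give a positive fold change. In whole liver, fewer cells of a type and less RNA per cell cannot be told apart.

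**Figure D1:**
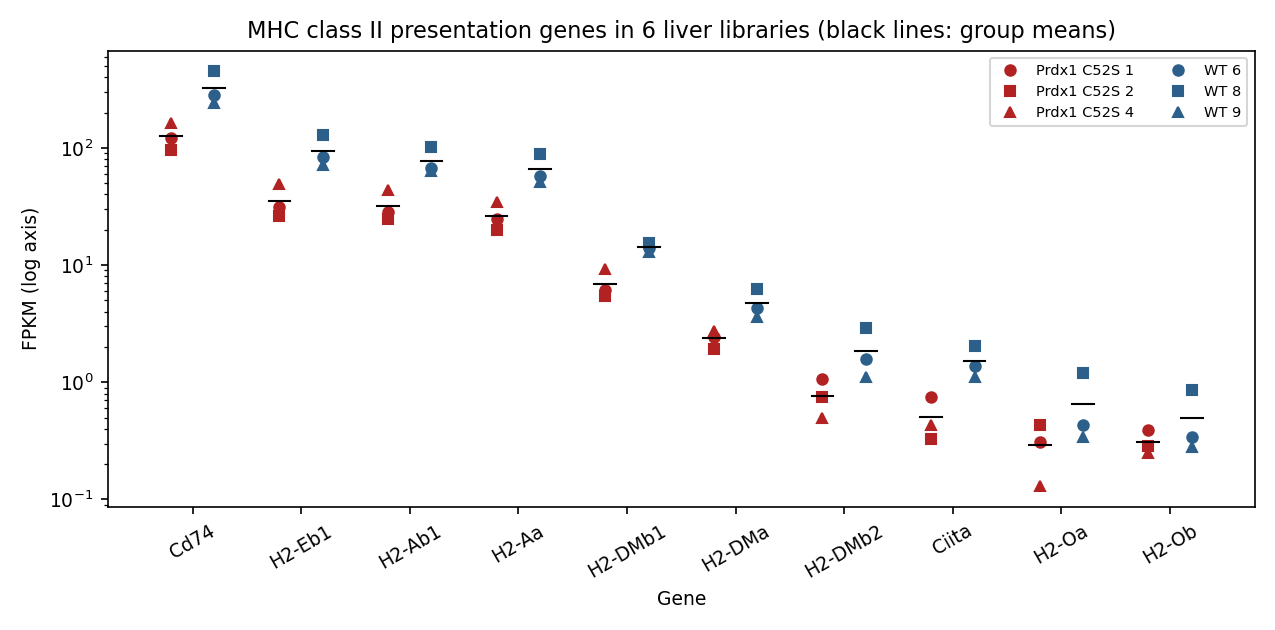
FPKM of the 10 MHC class II genes in each library on a log axis, with points for single libraries of Prdx1 C52S and WT and bars for group means. The groups are apart for 8 genes and overlap for H2-Oa and H2-Ob.

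The classical chains and the invariant chain were the most abundant and lay at less than the WT level in each Prdx1 C52S library. Cd74, which chaperones the chains and fills their groove, was at 121, 95.4 and 164 FPKM in Prdx1 C52S 1, 2 and 4 and at 284, 448 and 241 FPKM in WT 6, 8 and 9. Its means were 127 ± 35.0 and 325 ± 109 FPKM (SD, n = 3 each). The highest Prdx1 C52S value was below the lowest WT value, and WT 8 was the highest of all. The edgeR log2 fold change of Cd74 was -1.03 (SE 0.24), with a Benjamini-Hochberg adjusted p of 0.0860 over all genes. Without WT 8 it was -0.86 (SE 0.22, edgeR adjusted p 0.0900).

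H2-Eb1, the beta chain of the I-E molecule, was at 31.3, 26.0 and 48.8 FPKM in Prdx1 C52S and 83.3, 128 and 71.2 FPKM in WT. H2-Ab1, the I-A beta chain, was at 28.2, 24.6 and 43.7 FPKM against 67.6, 101 and 63.0 FPKM. H2-Aa, the I-A alpha chain that pairs with H2-Ab1, was at 24.8, 19.7 and 34.6 FPKM against 57.8, 89.1 and 51.5 FPKM. All 3 chains had the same library order: C52S 4 was the highest and C52S 2 the lowest of the variant group, and WT 8 was the highest and WT 9 the lowest of the WT group. The edgeR log2 fold change was -1.09 (SE 0.25, adjusted p 0.0853) for H2-Eb1, -0.95 (SE 0.23, adjusted p 0.0875) for H2-Ab1 and -1.01 (SE 0.23, adjusted p 0.0842) for H2-Aa. Without WT 8 these were -0.94, -0.83 and -0.86, with edgeR adjusted p-values of 0.142, 0.137 and 0.0986.

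Ciita, which encodes the transactivator, was at 0.749, 0.327 and 0.433 FPKM in Prdx1 C52S and at 1.39, 2.05 and 1.10 FPKM in WT (means 0.503 ± 0.219 and 1.51 ± 0.487, SD, n = 3 each). Unlike the chains, its highest Prdx1 C52S library was C52S 1 rather than C52S 4. Its edgeR log2 fold change was -1.27 (SE 0.31, adjusted p 0.0886), and -1.12 (SE 0.33, adjusted p 0.105) without WT 8. Ciita overlaps Dexi on the other strand. Dexi was at 3.88 ± 0.437 FPKM in Prdx1 C52S and 4.64 ± 0.872 FPKM in WT (SD, n = 3 each; log2 fold change 0.04), and whether counting used the strand is not given in the sources used here.

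H2-DM, the editor that removes the invariant chain fragment, was also at lower levels in each Prdx1 C52S library. Its alpha chain H2-DMa was at 2.41, 1.91 and 2.76 FPKM in Prdx1 C52S and 4.31, 6.29 and 3.63 FPKM in WT. The beta chain H2-DMb1 was at 6.18, 5.39 and 9.29 FPKM against 14.1, 15.5 and 12.8 FPKM. For both, the groups did not overlap. The edgeR log2 fold change was -0.69 (SE 0.18, adjusted p 0.0962) for H2-DMa and -0.73 (SE 0.20, adjusted p 0.102) for H2-DMb1. Without WT 8 these were -0.56 and -0.76, with edgeR adjusted p-values of 0.106 and 0.105. H2-DMa overlaps Brd2 on the other strand, which was at 13.5 ± 0.943 and 14.3 ± 2.61 FPKM (SD, n = 3 each).

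H2-DMb2, a second H2-DM beta chain gene, is less certain. It was at 1.07, 0.744 and 0.492 FPKM in Prdx1 C52S and 1.58, 2.91 and 1.10 FPKM in WT, where C52S 1 almost reached WT 9. Its edgeR log2 fold change was -0.94 (SE 0.39, adjusted p 0.182), and -0.61 (SE 0.36, adjusted p 0.374) without WT 8. H2-DMb1 and H2-DMb2 are near copies: 27.2% of the 50-base stretches of the longest H2-DMb1 coding transcript also occur in a coding transcript of H2-DMb2, and how shared reads were assigned is not given in the sources used here. No other pair of the 10 genes shared such a stretch.

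The 2 chains of H2-O, the inhibitor of H2-DM that is typical of B cells, did not separate the groups. H2-Oa was at 0.311, 0.434 and 0.130 FPKM in Prdx1 C52S and 0.432, 1.20 and 0.339 FPKM in WT. H2-Ob was at 0.389, 0.288 and 0.250 FPKM against 0.342, 0.865 and 0.280 FPKM. In both genes WT 8 was the only library well above the others. At 4 counts a fragment, H2-Oa rested on 3.25 to 35.3 fragments a library and H2-Ob on 22.8 to 97.0, against at least 3348 for Cd74. The edgeR log2 fold change was -0.77 (SE 0.58, adjusted p 0.432) for H2-Oa and -0.32 (SE 0.39, adjusted p 0.643) for H2-Ob. Without WT 8 H2-Oa was at -0.19 (SE 0.56) and H2-Ob turned to 0.18 (SE 0.30), with edgeR adjusted p-values of 0.891 and 0.776.

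The library order also differed among the genes. By FPKM, WT 8 was the highest WT library for all 10, which was so for 65.6% of all genes tested. After TMM scaling H2-DMb1 was an exception, at a log2 CPM of 4.67, 4.50 and 4.55 in WT 6, 8 and 9. By FPKM, C52S 4 was the highest variant library for 6 genes, the 3 chains, Cd74, H2-DMa and H2-DMb1, and the lowest for 3, H2-DMb2, H2-Oa and H2-Ob. Over all genes it was the highest in 30.7% and the lowest in 34.4%. Among 10 B cell markers, C52S 4 was the lowest variant library for 7 and WT 8 the highest WT library for 7. The B cell receptor component Cd79a, chosen after its values were seen, was at 0.899, 1.07 and 0.565 FPKM in Prdx1 C52S and 1.13, 1.84 and 0.741 FPKM in WT. Cd22, an inhibitory B cell receptor and the B cell marker with the smallest edgeR p, had another order, at 0.656, 0.488 and 0.726 FPKM against 1.25, 1.17 and 1.08 FPKM. The summed B cell markers were at 2.81 to 3.90 FPKM in Prdx1 C52S and 3.41 to 7.45 FPKM in WT, and their part in the H2-O values was not tested.

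**Figure D2:**
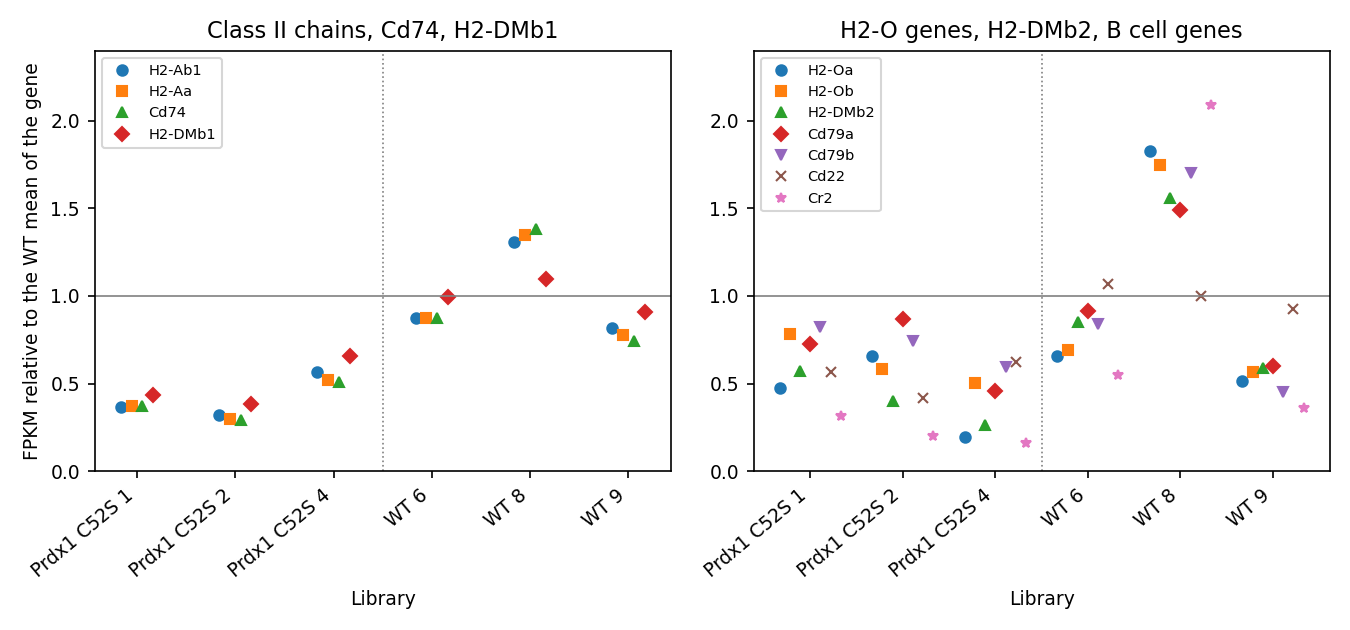
FPKM in each library divided by the gene's WT mean, on a linear axis, for H2-Ab1, H2-Aa, Cd74 and H2-DMb1 (left) and for H2-Oa, H2-Ob, H2-DMb2 and 4 B cell genes (right); Cd22 and Cr2 have the smallest edgeR p of that list, and Cd79a and Cd79b were chosen after their values were seen. Among the variant libraries, C52S 4 is the highest for the genes on the left and for Cd22, and the lowest for the other genes on the right.

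Across the whole set, the edgeR log2 fold change was negative for 10 of 10 genes, as for 53.0% of the 18931 genes tested. The median was -0.94 over the members and -0.03 over all genes. With edgeR and Benjamini-Hochberg adjustment, 0 of 10 passed 0.05, as did 0.0% of all genes. At an unadjusted edgeR p under 0.05, 8 of 10 were lower, against 14.8% of all genes, and H2-Oa and H2-Ob were the exceptions. DESeq2 called 7 of 10 lower (9.88% of the 17448 genes to which it gave an adjusted p): H2-Aa, H2-Ab1, H2-Eb1, Cd74, Ciita, H2-DMa and H2-DMb1. Limma's voom with quality weights called 5 of 10 lower (5.31% of genes): H2-Aa, Cd74, Ciita, H2-DMa and H2-DMb1.

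Leaving out WT 8 changed some of these counts. The member median was then -0.80, against -0.01 over all genes. EdgeR again called 0 of 10, although 1.94% of all genes passed as lower. At an unadjusted edgeR p under 0.05, 7 of 10 were lower, against 11.1% of all genes. DESeq2 called the same 7 genes lower (7.13% of genes), and voom called 0 (2.38% of genes). Over all 17 alternatives, adjusted p-values from edgeR, DESeq2 or limma ranged from 0.000807 to 0.290 for Cd74, 0.000887 to 0.290 for H2-Aa, 0.00233 to 0.290 for H2-Ab1 and 0.00115 to 0.290 for H2-Eb1. For Ciita the range was 0.00254 to 0.290, for H2-DMa 0.0132 to 0.292 and for H2-DMb1 0.0182 to 0.298. H2-DMb2, H2-Oa and H2-Ob passed under none of these alternatives, with ranges of 0.103 to 0.395, 0.238 to 0.904 and 0.333 to 0.986. The calls of the first 7 genes thus depended on the tool and, with voom, on whether WT 8 was included.

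**Figure D3:**
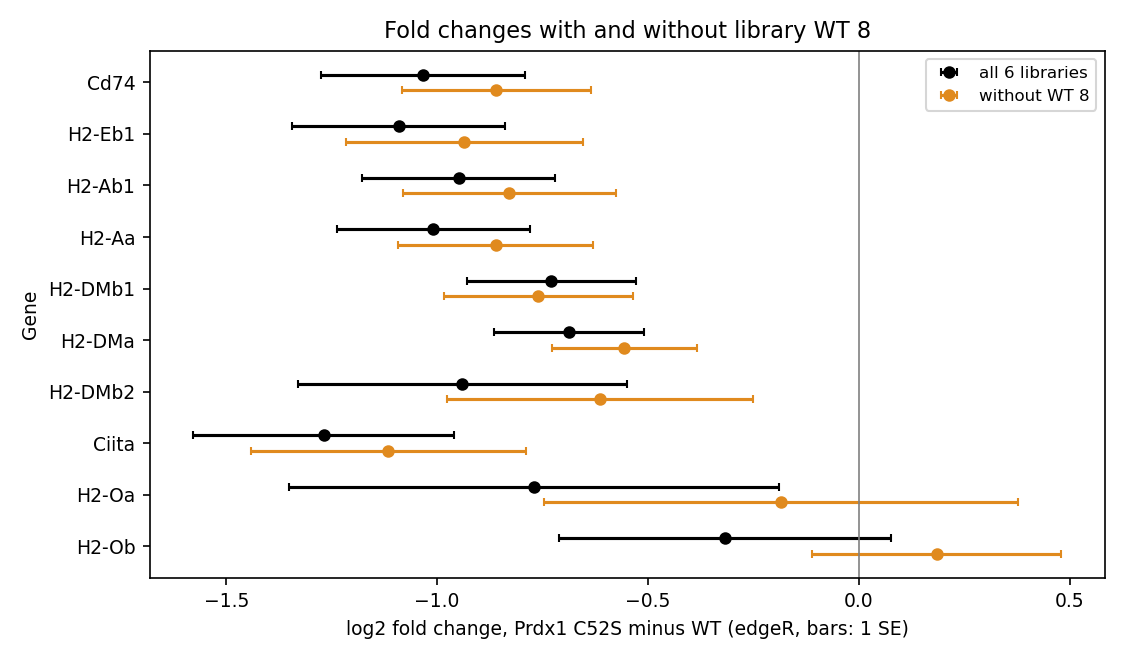
The edgeR log2 fold change (Prdx1 C52S minus WT) of each member, with bars of 1 SE, from all 6 libraries and without WT 8. With all 6 libraries every value is below 0, and without WT 8 H2-Ob moves to 0.18.

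Ratios of 2 genes within a library, which do not depend on library scaling, showed whether the members kept their proportions. With 3 libraries against 3, the smallest possible two-sided exact permutation p is 0.1, so none of the 10 ratios could pass 0.05. H2-Aa relative to H2-Ab1 was 0.879, 0.802 and 0.791 in Prdx1 C52S and 0.855, 0.881 and 0.818 in WT. Cd74 relative to H2-Ab1 was 4.29, 3.88 and 3.76 against 4.21, 4.43 and 3.83. The log2 differences were -0.05 and -0.06, and both groups overlapped (exact permutation p 0.4 and 0.6). H2-Eb1 relative to H2-Ab1 was lower in each variant library, at 1.11, 1.06 and 1.12 against 1.23, 1.26 and 1.13 (log2 difference -0.14, exact permutation p 0.1, adjusted p 0.500). H2-DMa relative to H2-Ab1 was 0.0856, 0.0778 and 0.063 against 0.0637, 0.0622 and 0.0576, a log2 difference of 0.29 (exact permutation p 0.2). H2-DMa relative to H2-DMb1 differed by 0.08 on the log2 scale (exact permutation p 0.8).

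Against leukocyte genes, H2-Ab1 kept overlapping ratios. Relative to Ptprc, the pan-leukocyte phosphatase CD45, it was 24.0, 22.3 and 35.7 in Prdx1 C52S and 24.7, 33.8 and 29.7 in WT (log2 difference -0.12, exact permutation p 0.7). Relative to Csf1r, the macrophage growth factor receptor, it was 2.23, 2.12 and 3.67 against 3.05, 4.70 and 3.45 (-0.50, exact permutation p 0.3). Leaving out any 1 library gave -0.33 to 0.01 for Ptprc and -0.75 to -0.32 for Csf1r. The log2 difference was 0.07 relative to Lyz2, the myeloid lysozyme, and 0.14 relative to Flt3, a dendritic cell receptor (exact permutation p 0.6 and 0.7). Neither sign was stable: leaving out any 1 library gave -0.13 to 0.26 for Lyz2 and -0.08 to 0.32 for Flt3, and adding 0.1 FPKM gave -0.30 for Flt3. A p of this size does not show that the ratios were alike. Relative to the class I heavy chain H2-K1 the groups did not overlap, at 0.0803, 0.0657 and 0.106 against 0.165, 0.266 and 0.162. That log2 difference was -1.23, with an exact permutation p of 0.1 (adjusted p 0.500), and it lay between -1.41 and -0.99 when any 1 library was left out.

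**Figure D4:**
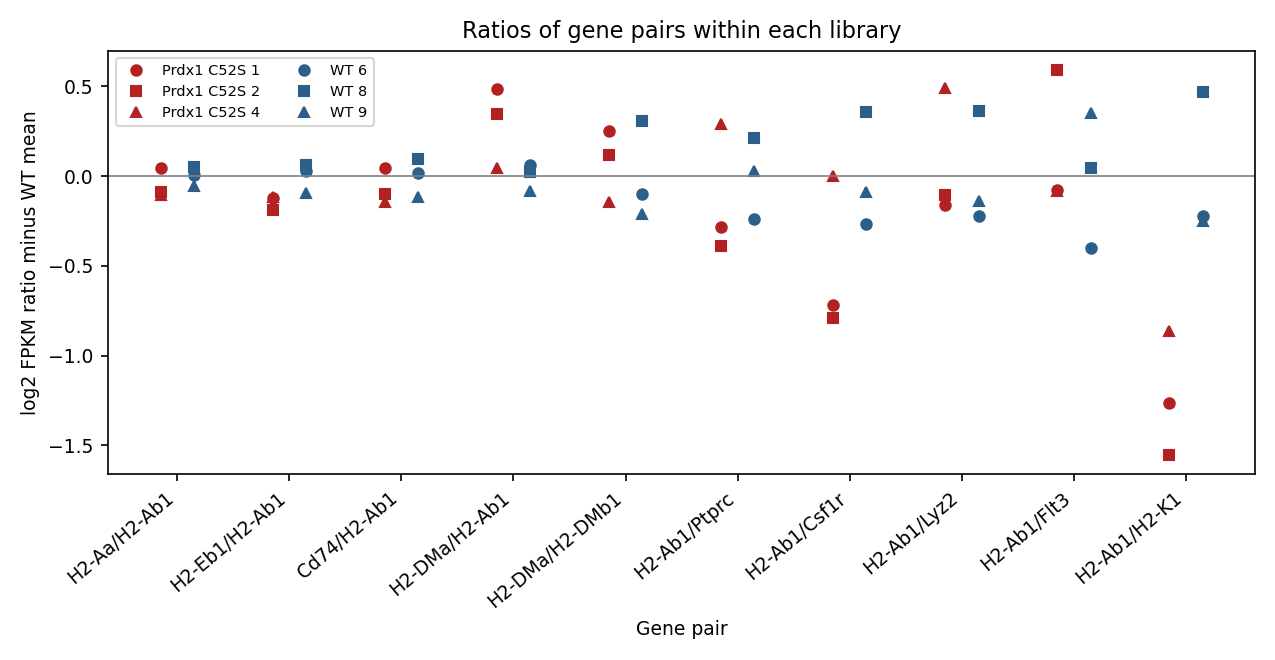
Log2 ratio of 2 genes' FPKM in each library minus the WT mean of that ratio, with a point for each library. The H2-Ab1 to H2-K1 and H2-Eb1 to H2-Ab1 ratios are lower in every Prdx1 C52S library than in every WT library, and the ratios of H2-Ab1 to the leukocyte genes overlap.

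How the other genes followed H2-Ab1 within the groups was described by the correlation of deviations from each group's mean, over the 6 libraries. The deviations share libraries and depth and leave few degrees of freedom. H2-Eb1 had r = 0.995, H2-Aa 0.986, Cd74 0.972, H2-DMb1 0.914 and H2-DMa 0.908. These values were above the r of 98.3% to 99.98% of the non-member genes compared. Ciita had r = 0.422 and H2-DMb2 r = 0.174, above only 54.1% and 35.9% of those genes. Among the 10673 genes compared, the 8 non-members nearest to H2-Ab1 were Natd1, Fgl2, Il4ra, Polr3b, Wdfy2, Rap1b, Rps12-ps3 and Tyw5, with r from 0.991 to 0.999. Only 1 to 3 of these 8 stayed among the nearest 8 when any 1 library was left out.

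The rest of the pathway was read from lists of genes. With all 6 libraries, edgeR called 0 of the 138 list genes tested at an adjusted p of 0.05. DESeq2 called 38, of which 33 were lower. Over all genes, DESeq2 called 9.88% lower and 8.02% higher. The lists' counts stand beside all genes tested, of which 53.0% had a negative fold change and, at an unadjusted edgeR p under 0.05, 14.8% were lower and 11.5% higher. Of 15 genes of peptide loading and proteolysis, 10 had a negative fold change, 5 of them at an unadjusted p under 0.05, and the median was -0.13. Without WT 8 the median was -0.28, and edgeR called 6 of the 15 lower, against 1.94% of all genes: Ctss, Lgmn, Ifi30, Marchf1, Tcirg1 and Ap1s2. Ctss, the cathepsin that trims the invariant chain, was at 59.7, 48.7 and 74.6 FPKM in Prdx1 C52S and 144, 154 and 128 FPKM in WT. Its edgeR log2 fold change was -0.93 (SE 0.17, adjusted p 0.0711) with all libraries. Ifi30, the lysosomal thiol reductase GILT, was at 19.8 ± 0.953 and 31.8 ± 1.45 FPKM (SD, n = 3 each).

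Genes that control class II transcription lay on both sides of 0. Of 18 tested genes of class II transcription and interferon gamma input, 13 had a negative fold change, with a median of -0.19, and 6 were lower and 1 higher at an unadjusted edgeR p under 0.05. The median was -0.10 without WT 8. The X box factors were at log2 fold changes of -0.26 for Rfx5, 0.20 for Rfxap and 0.25 for Rfxank. Ifngr1, a chain of the interferon gamma receptor, was at 6.33 ± 0.456 FPKM in Prdx1 C52S and 17.3 ± 7.07 FPKM in WT (SD, n = 3 each; log2 fold change -1.12, edgeR adjusted p 0.0654). Without WT 8, edgeR called 2 of 19 tested genes lower, Ifngr1 and Spi1, against 1.94% of all genes. It called 1 higher, Nfyb, a subunit of the Y box factor, against 2.7% of all genes. Ifng itself was too low to be tested: it was listed at 0, 0.101 and 0 FPKM in C52S 1, 2 and 4 and at 0.0329, 0.0443 and 0.159 FPKM in WT 6, 8 and 9, so the groups overlapped.

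Among genes of the T cells that read class II, 6 of 8 fold changes were negative, with a median of -0.95, and 2 were lower at an unadjusted edgeR p under 0.05. Without WT 8 that median was -0.26, and 1 was lower at that threshold. Cd28, the T cell co-stimulatory receptor, was at 0.0258 ± 0.0224 and 0.132 ± 0.0266 FPKM (SD, n = 3 each), so few fragments stand behind it. Of 8 tested co-stimulation and CD74 partner genes, 5 were negative, with a median of -0.32, and 3 were lower and 1 higher at an unadjusted edgeR p under 0.05. Without WT 8, edgeR called 1 of these 8 lower, Cd44, the signalling partner of CD74, against 1.94% of all genes. Of 14 MHC class I genes, 8 were negative, with a median of -0.13, and 4 were lower at an unadjusted edgeR p under 0.05 (1 without WT 8). The class I heavy chain H2-K1 was at 380 ± 31.6 FPKM in Prdx1 C52S and 392 ± 15.1 FPKM in WT (SD, n = 3 each). H2-D1, another heavy chain, was at 219, 207 and 259 FPKM against 299, 317 and 291 FPKM, with a log2 fold change of -0.12. Nlrc5, the class I counterpart of Ciita, was at 3.15, 2.84 and 3.31 FPKM against 4.41, 5.58 and 3.93 FPKM, with a log2 fold change of -0.28. Neither of these 2 genes overlapped between the groups by FPKM, where 36.7% of all genes tested were lower without overlap.

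Marker lists of the cell types a liver sample can hold differed in how they lay beside the members, and edgeR with all libraries called none of their genes. Summed over 12 macrophage and leukocyte markers, FPKM was 325, 291 and 335 in Prdx1 C52S and 731, 680 and 667 in WT, and 12 of 12 fold changes were negative, with a median of -0.69. Over 12 dendritic cell markers the sum was 8.56, 6.99 and 8.91 FPKM against 16.0, 20.0 and 11.4 FPKM, with 10 of 12 negative and a median of -0.66. At an unadjusted edgeR p under 0.05, 6 of the 12 dendritic cell markers were lower with all libraries and 1 without WT 8. Over 5 monocyte markers it was 7.30 to 9.22 FPKM against 15.2 to 21.7 FPKM. The 7 T cell markers summed to 1.17 to 1.66 FPKM against 3.42 to 7.87 FPKM, and the 6 cholangiocyte markers to 62.8 to 131 FPKM against 228 to 822 FPKM. None of these 5 sums overlapped between the groups. By FPKM, 36.7% of all single genes tested were also lower in Prdx1 C52S without overlap, and the sums were not scaled by TMM. Without WT 8 the median moved from -1.22 to -0.80 for the T cell markers and from -3.01 to -1.55 for the cholangiocyte markers. EdgeR then called 3 of the 7 T cell markers lower (Cd3e, Cd8a and Trac) and 0 of the 6 cholangiocyte markers, against 1.94% of all genes. The B cell sums given above overlapped, with a median of -0.19. The sums of the 6 Kupffer cell markers also overlapped with all libraries, at 166 to 214 FPKM in Prdx1 C52S and 36.3 to 278 FPKM in WT. The overlap of the sums came from WT 8 alone (36.3 FPKM). The sums of WT 6 and 9, at 247 and 278 FPKM, were above every Prdx1 C52S library. Cd5l was the largest part of each sum. As single genes, Clec4f, Timd4 and Marco still overlapped between the groups without WT 8. The median fold change of these 6 markers was 0.34 with all libraries, where all 6 were positive. It was -0.18 without WT 8, where 4 were negative and 2 positive. The part of these cell markers in the class II values was not tested. Without WT 8 the macrophage and leukocyte median was -0.84 and the member median -0.80; edgeR called 8 of those 12 markers lower and 0 of the 10 members, against 1.94% of all genes.

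**Figure D5:**
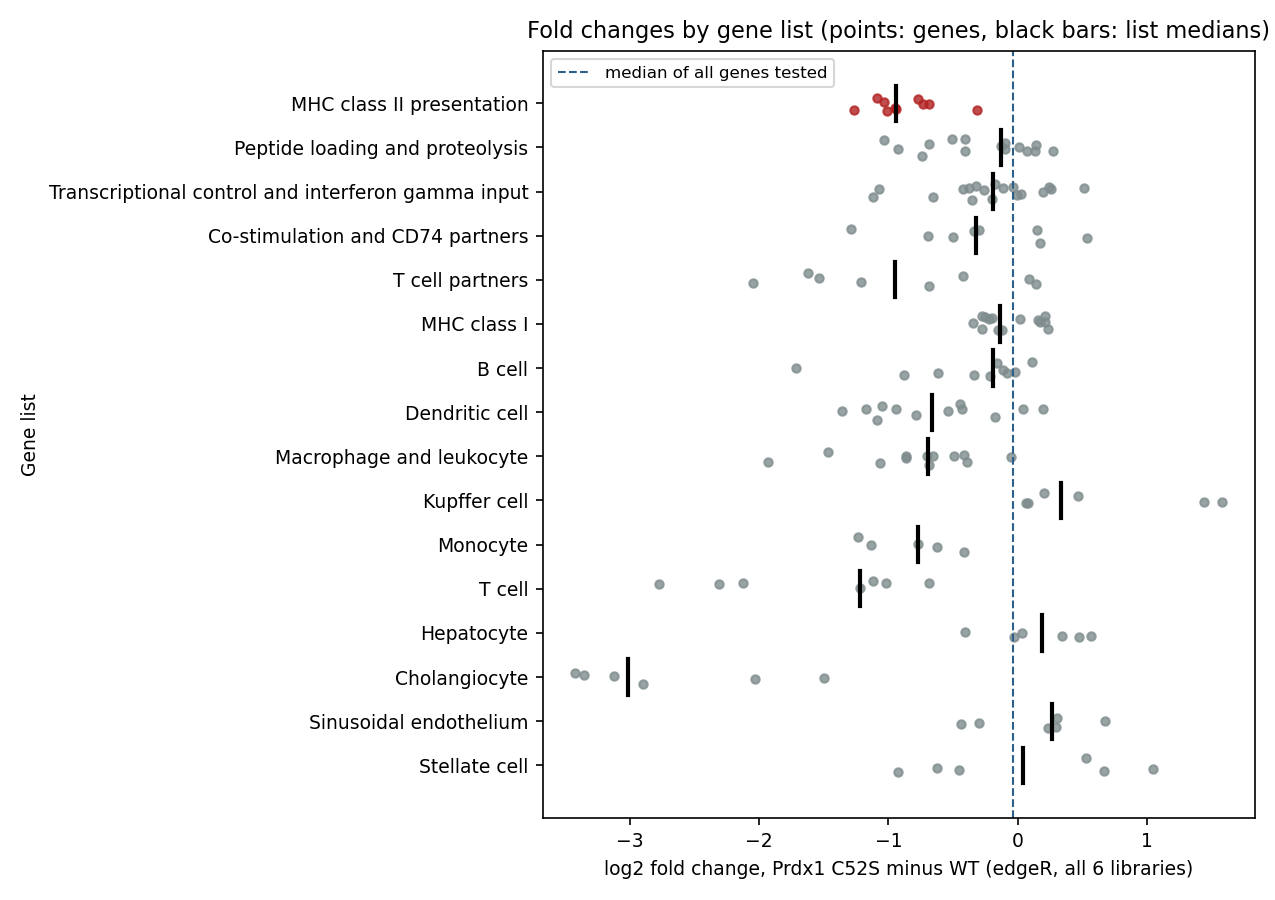
The edgeR log2 fold changes (Prdx1 C52S minus WT) of the genes of each list, with a point for each gene and a bar for each list's median. The members' median is -0.94 and that of the T cell partners -0.95, which was -0.26 without WT 8. The T cell, monocyte, macrophage and dendritic cell lists have medians of -1.22, -0.77, -0.69 and -0.66. The MHC class I median is -0.13.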

How the data were processed

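Liver poly(A) RNA was sequenced as paired reads with a dUTP protocol and molecular identifiers, per the labels' protocols. The authors deposited FPKM values and estimated counts per gene and library, per the file headers. StringTie 1.3.4d, HISAT2 2.0.4, edgeR, DESeq2, UMI-tools and cutadapt 1.9 are named without roles in the submitters' processing notes, with the build mm9; 29642 of 29734 gene identifiers are in GENCODE M21, 25866 with identical coordinates, so positions are given on GRCm38. Among estimated counts of 1 to 8, the value 4 was the most frequent (6204 values), with 5315 at 1, 3954 at 2 and 3538 at 3. A fragment was therefore taken as about 4 counts, which is an assumption because lower values were also frequent. Dividing by 4 was tried as an alternative.

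Estimated counts were rounded and tested in R 4.3.3 with edgeR 4.0.16 (filterByExpr, TMM, robust quasi-likelihood test, two-sided, Benjamini-Hochberg over 18931 genes). Alternatives used DESeq2 1.42.0, limma 3.58.1, other scalings, no filter, FPKM with 1 or 0.1 added, counts divided by 4, and each library left out; DESeq2 and voom without WT 8 were added after seeing the data. The standard error is the fold change divided by the root of the F statistic. FPKM ratios were tested by an exact two-sided permutation test (20 arrangements), adjusted over 10 ratios. The edgeR fit was tried on simulated data whose spread between libraries (coefficient of variation 0.1) was smaller than in these data (0.31). That trial therefore does not show how many changes the fit would find here.

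The members and lists were chosen with earlier results of these data known. Named genes are the 10 members, list genes with the 3 smallest edgeR p-values, genes called, the ratio genes and 8 genes by likeness to H2-Ab1 (mean of at least 1 FPKM, log2(FPKM + 0.1)). Others were named beyond that rule after their values were seen. These were the X box factors, Ifng, Spi1, H2-D1, Cd79a, Cd79b, Timd4, Cd5l, Clec4f, Marco, Sox9, Spp1, Alb, Brd2 and Dexi.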

Additional observations from a re-analysis of the deposited data

How the results depend on the processing

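No paired analysis was possible because the groups share no replicate numbers. The edgeR test with all libraries called 0 genes; the count was 160 with library totals only, 1 with quantile normalisation, 196 with no filter, 3122 with DESeq2, 2029 with voom, 137 with limma on log2(FPKM + 1), 83 with counts divided by 4, and 0 to 897 when any 1 library was left out (897 without WT 8, 132 without WT 9). Without WT 8, DESeq2 called 2603 and voom 990. Of the members, 0 were called by edgeR, 7 by DESeq2 with and without WT 8, and 5 by voom. Of the list genes, 0 were called by edgeR, and 14 with library totals, 10 with no filter, 38 with DESeq2, 36 with voom, 12 with limma on log2(FPKM + 1), 7 with counts divided by 4, 0 to 25 with 1 library left out (25 without WT 8, 4 without WT 9), and 43 and 24 with DESeq2 and voom without WT 8. The member median moved to -1.28 with library totals, where the all-gene median was -0.34, and to -1.20 with limma on log2(FPKM + 0.1), where it was -0.29; it lay between -1.08 and -0.80 with 1 library left out. H2-Ob reversed to 0.093 with quantile normalisation, 0.18 without WT 8, and 0.19 and 0.16 with DESeq2 and voom without WT 8, and lay between -0.55 and 0.18 with 1 library left out. The cause of these changes was not tested. Of the member fold changes under alternatives, 147 kept direction and side of the threshold and 19 passed it in addition, all with DESeq2 or voom. Of the ratios, 79 values stayed within 1 SD, and H2-Ab1 to Flt3 moved to -0.30 with 0.1 FPKM added. The nearest genes to H2-Ab1 were unstable, with 1 to 3 of 8 shared when a library was left out. Ciita had the lowest fold change of the members with all libraries (-1.27), but not with quantile normalisation (-1.18, Cd74 -1.46) or limma on log2(FPKM + 1) (-0.73, H2-Eb1 -1.39). Nor was Ciita the lowest without C52S 2 (-1.04, H2-Oa -1.17) or without C52S 4 (-1.18, H2-Eb1 -1.40). If a fragment is taken as 4 counts, H2-Oa rested on as few as 3.25 fragments. The SE of H2-Oa was 0.58, and 0.57 with counts divided by 4.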
